A study of Mus musculus with 6 samples.

Results

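The genes described here encode 9 proteins that tie a basement membrane together or tie it to cells, laminins left aside: the nidogens *Nid1* and *Nid2*, the heparan sulfate proteoglycans *Hspg2* (perlecan) and *Agrn* (agrin), the integrin ligand *Npnt* (nephronectin), the Fraser complex genes *Fras1*, *Frem1* and *Frem2*, and *Dag1*, which encodes the receptor dystroglycan. They were chosen by symbol from a fixed list, made with earlier results of these data known. All 9 were found among the 23420 genes of the deposited table. RNA came from whole mouse embryonic lungs at E11.5 (embryonic day, counted in days post coitus). Control lungs had the genotype Raptorf/+; ShhCre/+ and mutant lungs the genotype Raptorf/f; ShhCre/+, so both groups carried a Cre knocked in at *Shh* and at least 1 floxed allele of *Rptor* (Raptor), and the comparison was of 1 floxed allele with a pair of them. The Cre is active in the lung epithelium, so that loss of mTORC1 was directed to that layer while mesenchyme, vessels and mesothelium in the same RNA kept *Rptor*. Each library was made from a pool of several lungs of 1 genotype, with 3 control and 3 mutant pools. Nothing in the labels says how many litters stood behind the pools, and the p-values below measure only the spread between pools.

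A basement membrane is a sheet of laminin and collagen IV networks on which epithelium, endothelium and mesothelium rest. Nidogens bind both networks, perlecan and agrin add heparan sulfate chains that hold growth factors such as FGFs, and nephronectin offers a binding site for integrin α8β1 on mesenchymal cells. FRAS1, FREM1 and FREM2 form a complex under the epithelium that stabilizes its attachment to the mesenchyme in the embryo; FRAS1 and FREM2 are made by epithelium and FREM1 mainly by mesenchyme. Dystroglycan sits in the plasma membrane, where its glycans bind the LG domains of laminins, perlecan and agrin. In the branching lung the basement membrane surrounds the epithelial buds that grow into mesenchyme.

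The values are normalized counts, that is, the reads of a gene scaled by 1 factor per library. All 9 genes were well measured: the lowest value was 1374 (*Npnt* in control pool 2) and the highest 9686 (*Agrn* in control pool 3), in libraries of 20197642 to 21276090 recovered reads. *Rptor* itself was at 2126, 2193 and 2279 in control pools 1 to 3 and at 2023, 2137 and 2148 in mutant pools 1 to 3. These values overlapped (log2 fold change -0.06, limma adjusted p = 0.584), in counts that cover the whole gene in all cell types of the lung. The lung marker *Nkx2-1*, named outside the rule for named genes, was present in both groups at 2433 ± 330 in control and 2029 ± 45.7 in mutant lungs (mean ± SD, n = 3). Its log2 fold change was -0.25 (limma unadjusted p = 0.013, adjusted p = 0.218). Without control pool 3 it was -0.37 (limma adjusted p = 0.000995). The gene is also in the list of epithelial markers below.

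Control pool 3 stood apart from the other libraries, and this touched several of the 9 genes. Among genes with a mean of at least 500, the SD of its log2 deviation from the mean of the other pools was 0.177, against 0.0872 to 0.123 for the other 5 pools. Relative to the mean of control pools 1 and 2, its log2 values increased with the total exon length of the gene, from a median of -0.10 in the shortest of 5 equal groups of genes to 0.08 in the longest. *Fras1* (17709 bp of exons) was 0.59 higher in control pool 3 than in the other control pools, *Hspg2* (14307 bp) 0.32 higher and *Agrn* (9285 bp) 0.18 higher. *Nid2* (5174 bp) was lower there (-0.33), and so was *Frem1* (-0.31) in spite of its 13978 bp of exons. *Frem2* (13255 bp) was slightly lower there (-0.06), also against the trend with length. Only 80 of 7832 genes with a mean of at least 500 were as far from the other control pools as *Fras1*. *Xist*, an RNA of female cells that was named after its values were seen, was at 4599, 309 and 12989 in control pools 1 to 3 and at 41.9 to 466 in the mutant pools, so the pools also differed in sex composition. The part of exon length in the results below was not tested beyond the fits without control pool 3 and with a length correction. The part of sex was not tested. The fit without control pool 3 does not balance it, because *Xist* in control pool 1 (4599) was also above every mutant pool.

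**Figure D1:**
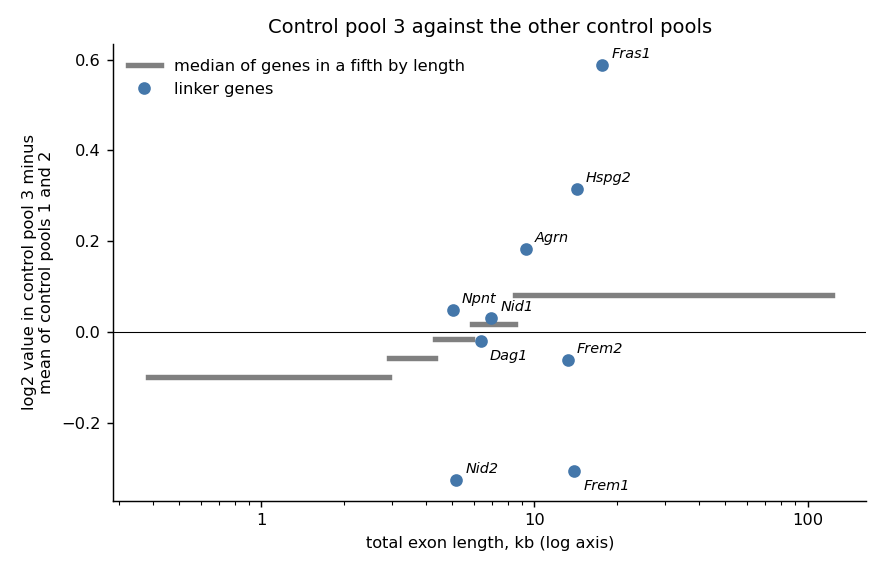
Log2 value in control pool 3 minus the mean of control pools 1 and 2 (vertical axis) against total exon length in kb (log axis). Blue points are the 9 linker genes and each grey bar is the median of 1 of 5 groups of genes by exon length. The grey bars climb from -0.10 to 0.08. *Fras1*, *Hspg2* and *Agrn* lie above them, and *Nid2*, *Frem1* and, by less, *Frem2* lie below.

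With 3 mutant pools against 3 control pools, limma called 0 of the 9 genes at a threshold of 0.05 on the adjusted p, and 0.501% of all 17168 tested genes. All 9 passed the filter on low values. At an unadjusted p under 0.05 there was 1 of 9, *Npnt*, against 13.6% of all tested genes, or 6.67% that were higher and 6.89% that were lower in the mutant pools. The same gene was the only 1 whose groups did not overlap, against 20.2% of all tested genes, or 9.77% with the mutant pools higher. Their median log2 fold change was -0.00118, beside -0.00212 over all tested genes, and 4 were above and 5 below 0. The edgeR quasi-likelihood test on the recovered reads also called 0 of 9 at an adjusted p under 0.05 and 1 of 9 at an unadjusted p under 0.05, where it called 0.539% and 14.9% of its tested genes. Without control pool 3 the count at an unadjusted p under 0.05 was 4 of 9 (*Npnt*, *Hspg2*, *Nid1* and *Frem1*), against a background of 16.9%, of which 8.37% were higher and 8.58% lower. In that fit 3 of 9 had groups that did not overlap (*Npnt*, *Hspg2* and *Frem1*), against 34% of all tested genes, and the count at an adjusted p under 0.05 stayed at 0, against 2.75%.

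**Figure D2:**
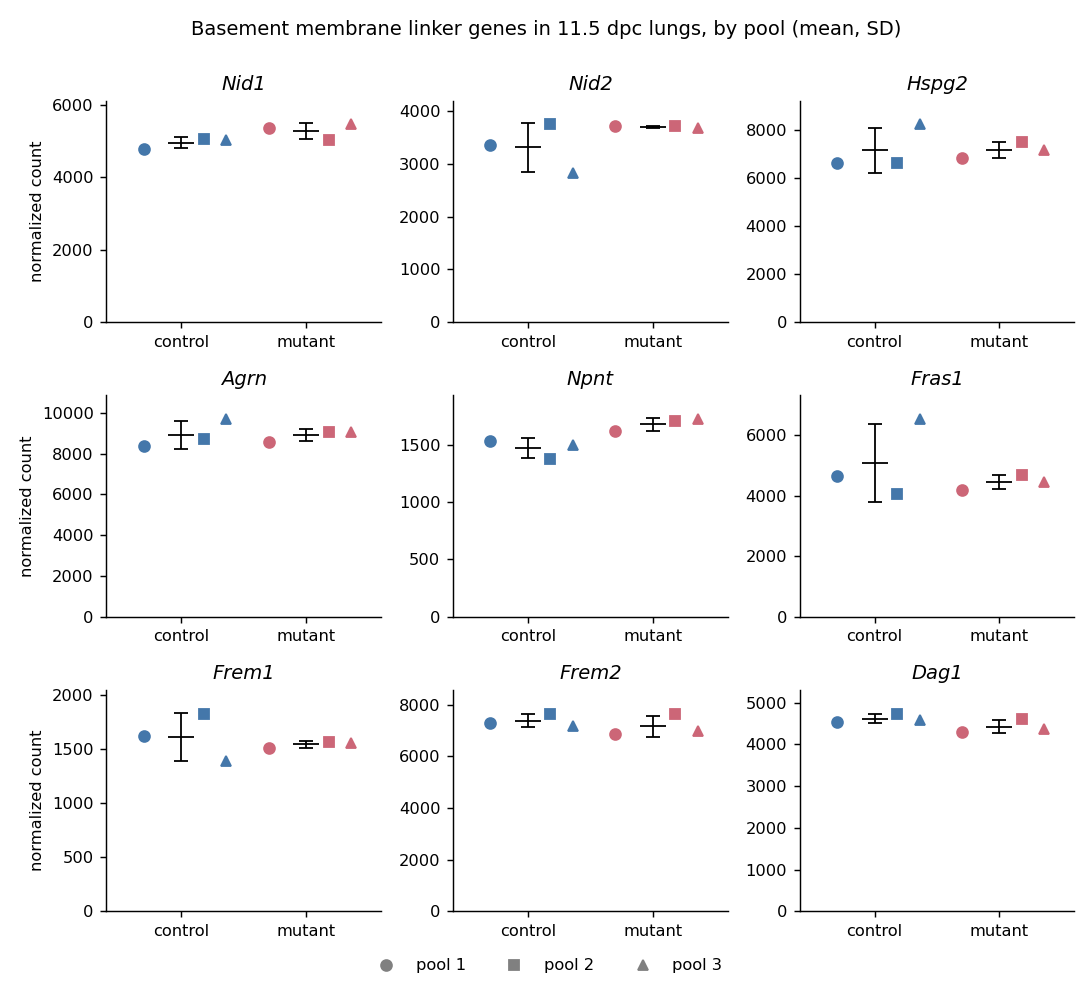
Normalized count (vertical axes, each starting at 0) of the 9 linker genes in the 3 control pools (blue) and 3 mutant pools (red). Symbols mark pools 1, 2 and 3, and black bars are the mean and SD of a group. *Npnt* is the gene whose mutant pools all lie above its control pools, and control pool 3 is the highest of all 6 for *Fras1*, *Hspg2* and *Agrn* and the lowest for *Nid2* and *Frem1*.

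The nidogens bridge laminin and collagen IV. *Nid1*, on chromosome 13 of GRCm38 from 13437551 to 13512269, was at 4797, 5061 and 5030 in control pools 1 to 3 and at 5358, 5029 and 5462 in mutant pools 1 to 3. Mutant pools 1 and 3 were above every control pool and mutant pool 2 lay among them. The log2 fold change was 0.09 (95% interval -0.01 to 0.19, limma adjusted p = 0.404), a difference of the size of the spread between pools. It was 0.10 without control pool 3 (0.01 to 0.19, unadjusted p = 0.0374, limma adjusted p = 0.259).

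*Nid2*, the second nidogen, lies on chromosome 14 from 19751265 to 19811787. It was at 3365, 3752 and 2833 in the control pools and at 3714, 3720 and 3682 in the mutant pools. The mutant pools were nearly alike, with an SD of 20.6, while the control pools spread around them with an SD of 462 and control pool 2 was the highest of all 6. Its log2 fold change was 0.17 (95% interval -0.01 to 0.35, limma adjusted p = 0.401) with all pools and 0.06 (-0.04 to 0.16, limma adjusted p = 0.553) without control pool 3, so that control pool 3 set most of its size. Without control pool 2 it was 0.26 (limma adjusted p = 0.0901). Of the exons of *Nid2*, 437 bp lie opposite exons of *Rtraf*, and the sources used here do not say whether strand was used in counting. *Rtraf*, listed under an older symbol, was at 2991 to 3365 in control and 3147 to 3358 in mutant pools. Shorter stretches of *Nid1* (143 bp) and *Fras1* (159 bp) exons lie opposite annotated antisense transcripts.

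Perlecan and agrin are the heparan sulfate proteoglycans of the group. *Hspg2*, on chromosome 4 from 137468769 to 137570630, was at 6608, 6606 and 8223 in the control pools and at 6837, 7498 and 7178 in the mutant pools. The mutant pools lay between the high control pool 3 and the other control pools. With all pools the log2 fold change was 0.01 (95% interval -0.16 to 0.19, limma adjusted p = 0.963). Leaving out control pool 3 gave 0.12 (0.03 to 0.20, unadjusted p = 0.0127, limma adjusted p = 0.154), and all 3 mutant pools were then above both control pools. The direction was the opposite when control pool 1 (-0.04), control pool 2 (-0.04) or mutant pool 2 (-0.02) was left out instead.

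*Agrn* lies on chromosome 4 from 156165290 to 156197488 and had the highest values of the 9 genes, at 8371, 8703 and 9686 in the control pools and 8572, 9066 and 9058 in the mutant pools. Every mutant pool lay inside the range of the control pools. The log2 fold change was -0.00118 (95% interval -0.12 to 0.12, limma adjusted p = 0.995), and its sign turned with upper-quartile scaling, with the exon length correction, without control pool 3 and without mutant pool 1.

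*Npnt*, on chromosome 3 from 132881745 to 132950291, encodes nephronectin, a secreted protein with EGF-like repeats that binds integrin α8β1. Its normalized count was 1538, 1374 and 1503 in control pools 1 to 3 and 1618, 1705 and 1726 in mutant pools 1 to 3. Each of the 3 mutant pools exceeded each of the 3 control pools, and the gap between the groups was smaller than the range of either. The mean was 1472 ± 86.4 (SD, n = 3) in control and 1683 ± 56.8 (SD, n = 3) in mutant lungs, a fold of 1.14 (95% interval 1.05 to 1.25). On the log2 scale this was 0.19 (standard error 0.05, unadjusted p = 0.00524), and with adjustment over all tested genes it did not pass (limma adjusted p = 0.159). By p it ranked 564 among the 17168 tested genes.

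Control pool 3 did not set the value of *Npnt*. Without that pool its log2 fold change was 0.21 (95% interval 0.09 to 0.33, limma adjusted p = 0.062), the lowest adjusted p that any of the 9 genes reached in the fits made here. Over the 6 pools, the genes whose log2 values ran most nearly parallel to those of *Npnt*, among 11457 tested genes with a mean of at least 100, were *Zfp444*, *BC005537* and *Pcdh19*, with Pearson's r of 0.995, 0.993 and 0.992. These values rest on 6 points that fall into 2 groups, and 158 genes had an r above 0.9.

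The receptor subunit for nephronectin, *Itga8*, was at 2098, 2308 and 1880 in the control pools and at 2236, 2495 and 2247 in the mutant pools. These values overlapped, 0.15 apart on the log2 scale (limma adjusted p = 0.399). Its partner *Itgb1*, named outside the rule, was at 10885 ± 318 in control and 11212 ± 417 in mutant lungs (mean ± SD, n = 3).

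The Fraser complex genes showed where the control pools disagreed. *Fras1* lies on chromosome 5 from 96373955 to 96784728 and encodes a very large transmembrane matrix protein. Its normalized count was 4656, 4058 and 6539 in the control pools and 4209, 4676 and 4455 in the mutant pools. The mutant pools lay close together (SD 234), while control pool 3 was far above the other 5 pools and brought the SD of the control group to 1295. The log2 fold change was -0.16 (95% interval -0.47 to 0.14, limma adjusted p = 0.646), the widest interval of the 9 genes. Without control pool 3 it was 0.03 (-0.09 to 0.15, limma adjusted p = 0.831), and without control pool 2 it was -0.31 (unadjusted p = 0.0187, limma adjusted p = 0.210), so the direction for *Fras1* rested on which control pools were counted.

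*Frem1*, on chromosome 4 from 82897920 to 83052339, encodes the secreted member of the complex. It was at 1620, 1828 and 1392 in the control pools and at 1510, 1565 and 1562 in the mutant pools. Here control pool 3 was the lowest of the 6 and the mutant pools lay inside the range of the controls. The log2 fold change was -0.05 (95% interval -0.24 to 0.13, limma adjusted p = 0.831). Without control pool 3 it was -0.15 (-0.27 to -0.04, unadjusted p = 0.0138, limma adjusted p = 0.161), with both remaining control pools above all mutant pools, and without control pool 2 it was 0.04.

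*Frem2*, on chromosome 3 from 53513938 to 53657355, encodes the other transmembrane member. Its values of 7309, 7648 and 7162 in the control pools and 6859, 7641 and 6986 in the mutant pools overlapped, and control pool 3 did not stand out. The log2 fold change was -0.04 (95% interval -0.15 to 0.06, limma adjusted p = 0.748).

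*Dag1* lies on chromosome 9 from 108204634 to 108263958 and encodes both subunits of dystroglycan, the matrix receptor of the group. It was at 4545, 4733 and 4576 in the control pools and at 4297, 4597 and 4378 in the mutant pools. Mutant pools 1 and 3 were below every control pool, and mutant pool 2 was above 2 of them. Its log2 fold change was -0.06 (95% interval -0.15 to 0.03, limma adjusted p = 0.544), the narrowest interval of the 9 genes.

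**Figure D3:**
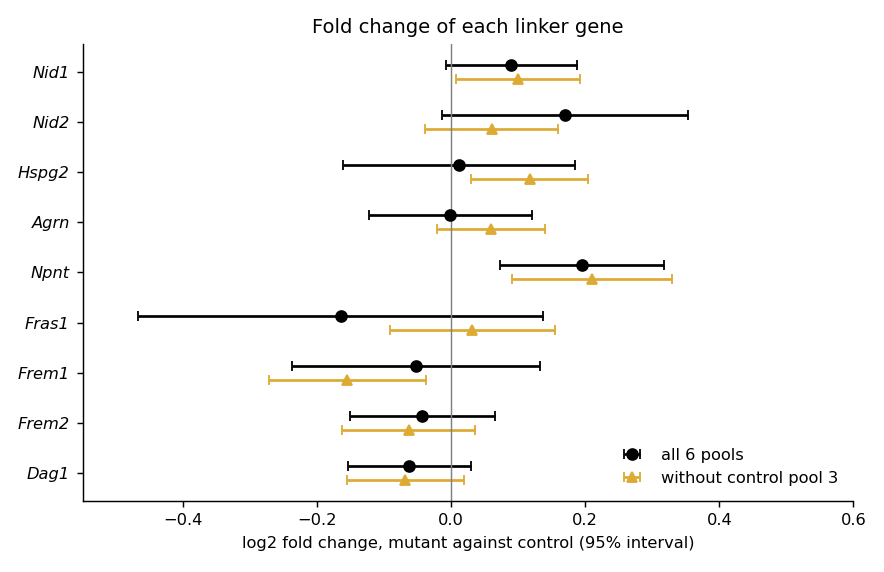
Log2 fold change of mutant against control for each linker gene, with its 95% interval from limma, for all 6 pools (black circles) and without control pool 3 (yellow triangles). The interval of *Npnt* lies above 0 in both fits, those of *Nid1* and *Hspg2* lie above 0 and that of *Frem1* below 0 only without control pool 3, and *Fras1* moves from -0.16 to 0.03 when that pool is left out.

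The pools of the mutant group lay closer together than those of the control group for 6 of the 9 genes, by SD. The exceptions were *Nid1*, *Frem2* and *Dag1*, which with *Npnt* were the 4 genes whose value in control pool 3 lay nearest to the other control pools. The same share was not counted over all tested genes. Control pool 3 also deviated most among all genes with a mean of at least 500 (SD 0.177). Whether the count is particular to the 9 was not tested.

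Because size factors cancel in a ratio of genes from the same pool, 5 ratios within the group were compared as well. The log2 ratio of *Nid2* to *Nid1* was -0.51, -0.43 and -0.83 in control pools 1 to 3 and -0.53, -0.43 and -0.57 in mutant pools 1 to 3. That of *Frem1* to *Fras1* was -1.52, -1.15 and -2.23 in the control pools and -1.48, -1.58 and -1.51 in the mutant pools. In both ratios control pool 3 was the lowest value and the mutant pools lay within the control range. The ratios of *Frem2* to *Fras1*, *Frem2* to *Frem1* and *Hspg2* to *Agrn* differed between the group means by 0.12, 0.00988 and 0.01. None of the 5 passed a test between groups (two-sided exact permutation test, p from 0.8 to 0.9, adjusted p = 0.9 for each over 5 ratios, where 3 pools against 3 allow no p below 0.1).

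Per kilobase of exon, *Agrn* had the highest level of the 9 genes in both groups, at 961 ± 73.7 normalized counts per kb in control and 958 ± 30.5 in mutant lungs (SD, n = 3). *Nid1* (715 ± 20.8 and 761 ± 32.6), *Dag1* (726 ± 15.8 and 696 ± 24.5) and *Nid2* (641 ± 89.2 and 716 ± 3.98) followed, in ranges that overlapped from each gene to the next. *Frem2* was at 556 ± 18.8 and 540 ± 31.7 and *Hspg2* at 499 ± 65.2 and 501 ± 23.1, which overlapped each other, while *Nid2* overlapped *Frem2* through its low value in control pool 3. *Npnt* (293 ± 17.2 and 335 ± 11.3) and *Fras1* (287 ± 73.1 and 251 ± 13.2) were lower, and *Fras1* reached the level of *Npnt* through control pool 3. *Frem1* was the lowest at 115 ± 15.6 and 111 ± 2.19, with no overlap with the next gene. These levels use the whole set of annotated exons as length, which understates a gene whose main transcript leaves some exons out.

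The group was set beside the marker genes of the cell types that make up the early lung, since the 9 genes come from several of them. The marker lists were chosen with earlier results of these data known, so they are no independent yardstick. Over all tested genes, 6.67% were higher and 6.89% lower at an unadjusted p under 0.05. Of 20 epithelial markers 19 were lower in the mutant pools at an unadjusted p under 0.05 and 7 of these fell at an adjusted p under 0.05, with a median log2 fold change of -0.49 over the list. Their summed normalized count was 18270 to 22888 in control and 14291 to 15569 in mutant pools. *Cdh1* (E-cadherin) had the lowest p of the list, at 1507, 1522 and 1288 in the control pools and 824, 630 and 753 in the mutant pools (limma adjusted p = 0.00728), and *Krt19*, named outside the rule, was the 1 marker that was higher (302 ± 28.8 and 410 ± 26.6, limma adjusted p = 0.0734). Of 15 mesenchymal markers 6 were higher at an unadjusted p under 0.05, with a median of 0.13 over the list. At an adjusted p under 0.05, 3 of these rose, all of them fibrillar collagen genes. They were *Col1a1* (19800 ± 1100 in control and 27828 ± 2191 in mutant lungs), *Col1a2* (24270 ± 1025 and 30639 ± 809) and *Col3a1* (27391 ± 1481 and 32858 ± 942). The summed count of the list was 98614 to 104882 in control and 119812 to 126979 in mutant pools. These 3 collagen genes had the highest counts in it. Without control pool 3, where 2.75% of all tested genes passed at an adjusted p, 18 epithelial markers fell, 1 rose (*Krt19*, log2 fold change 0.41, limma adjusted p = 0.036) and 5 mesenchymal markers rose. In bulk RNA, fewer cells of a type and less RNA per cell cannot be told apart. The log2 fold changes of the 9 linker genes lay between -0.16 and 0.19. Those of the epithelial markers that fell lay between -0.97 (*Cdh1*) and -0.23 (*Spint2*, named outside the rule). *Fras1* and *Frem2*, which epithelium makes, were at -0.16 and -0.04, and at 0.03 and -0.06 without control pool 3. The part of cell composition in the values of the 9 genes was not tested.

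Markers of other tissues were counted in the same comparison, where 6.67% of all tested genes were higher and 6.89% lower at an unadjusted p under 0.05. Of 9 endothelial markers 7 were higher at an unadjusted p under 0.05 and 0 at an adjusted p, with a median of 0.20 and a summed count of 13428 to 15363 in control and 15777 to 16316 in mutant pools. Smooth muscle markers had 4 of 6 higher at an unadjusted p under 0.05 (summed 7291 to 9070 and 9655 to 10658), and of 6 mesothelial markers 2 were higher, among which *Wt1* rose (limma adjusted p = 0.0496). Of 5 cardiac markers 1, *Myh6*, was lower at an unadjusted p under 0.05, and the list summed to 944 to 1010 in control and 659 to 770 in mutant pools. Neural and macrophage markers had 1 of 5 and 0 of 5 at an unadjusted p under 0.05. Of 5 erythroid markers 4 were tested, 0 of them passed at either threshold, and *Hba-a1* was listed at 0 in every pool. Without control pool 3, 2.75% of all tested genes passed at an adjusted p under 0.05. In that fit 1 endothelial marker (*Tie1*), 2 smooth muscle markers (*Acta2* and *Myh11*) and *Wt1* were higher at that threshold. There 2 cardiac markers (*Myh6* and *Myl7*) were lower, and 0 of the neural, macrophage and erythroid markers passed.

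Among 11 direct partners of the 9 proteins (receptors, complex members and adaptors, fixed as a list), 0 passed at an adjusted p under 0.05. Their median log2 fold change was -0.10. At an unadjusted p under 0.05 there was 1 of 11, against 13.6% of all tested genes. That gene was *Vwa2*, whose protein AMACO binds the Fraser complex. It was at 328, 343 and 371 in the control pools and at 283, 242 and 314 in the mutant pools, lower in every mutant pool (log2 fold change -0.32, limma adjusted p = 0.218). *Frem3*, the paralog of *Frem1* and *Frem2*, was barely present, at 12.9 to 17.7 in control and 21.6 to 26.5 in mutant pools (limma adjusted p = 0.382).

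The intracellular dystroglycan complex had 0 of 14 genes at an adjusted p under 0.05 and a median of 0.04. At an unadjusted p under 0.05, 1 was higher and 2 were lower, where 6.67% and 6.89% of all tested genes were. The syntrophin *Sntb1* was at 216, 198 and 184 in the control pools and 158, 140 and 147 in the mutant pools (log2 fold change -0.42, limma adjusted p = 0.137). The dystrobrevin *Dtna* was at 311, 286 and 351 and at 275, 180 and 196 (log2 fold change -0.56, limma adjusted p = 0.149). Sarcospan (*Sspn*) was at 302 to 327 in control and 356 to 378 in mutant pools (limma adjusted p = 0.246). For each of these 3 genes the groups did not overlap, as was so for 20.2% of all tested genes.

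The enzymes that build the matrix-binding glycan of dystroglycan varied less. Of 18 genes 0 passed at an adjusted p under 0.05, with a median of 0.04 and values from -0.09 to 0.23. At an unadjusted p under 0.05, 1 was higher, where 6.67% of all tested genes were. That gene was *Pomgnt2*, which extends the mannose core of the glycan, at 267 to 274 in control and 299 to 332 in mutant pools (log2 fold change 0.20, limma adjusted p = 0.306).

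Genes for heparan sulfate synthesis and editing, which act on perlecan and agrin, had 0 of 27 at an adjusted p under 0.05, and 5 higher and 0 lower at an unadjusted p under 0.05, where 6.67% of all tested genes were higher. Their median log2 fold change was 0.05, with 21 above and 6 below 0. *Sulf1*, which removes 6-O-sulfate outside the cell, was at 6001, 5615 and 6291 in the control pools and at 6637, 6681 and 6696 in the mutant pools (log2 fold change 0.16, limma adjusted p = 0.156). *Hs3st1*, a 3-O-sulfotransferase, was at 61.9, 67.2 and 42.7 and at 78.7, 92.2 and 96.2 (log2 fold change 0.65, limma adjusted p = 0.186). *B3galt6*, of the linkage region, was at 321 to 378 and 401 to 436 (limma adjusted p = 0.226).

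Among collagens and laminins of the basement membrane, the 8 collagen genes had 4 higher and 0 lower at an unadjusted p under 0.05, and 0 at an adjusted p. The 4 were *Col4a1*, *Col4a2*, *Col15a1* and *Col18a1*, of which *Col15a1* and *Col18a1* are not collagen IV chains. Over all tested genes, 6.67% were higher and 6.89% lower at an unadjusted p under 0.05. *Col4a1*, a chain of the main collagen IV network, was at 10792, 11151 and 11052 in the control pools and at 11625, 11680 and 11812 in the mutant pools, a small difference with no overlap (log2 fold change 0.09, limma adjusted p = 0.288). *Col4a2* was 0.10 higher on the log2 scale (limma adjusted p = 0.306) and *Col15a1* 0.22 higher (limma adjusted p = 0.159). The 11 laminin chains had 1 higher and 3 lower at an unadjusted p under 0.05, with *Lamb3* the 1 that passed at an adjusted p (log2 fold change -0.79) and *Lama1* at -0.35 (limma adjusted p = 0.0661). Of 13 other basement membrane components 0 passed at an adjusted p, with 3 higher and 2 lower at an unadjusted p under 0.05, led by *Ntn4* (-0.67), *Sparc* (0.14) and *Fbln2* (0.31). Without control pool 3, an adjusted p under 0.05 was reached by 2 of the heparan sulfate genes (*Sulf1* and *Hs3st3b1*, both higher), 1 collagen gene (*Col18a1*, higher), 2 laminin chains (*Lamb3* and *Lama1*, both lower) and 1 other component (*Fbln2*, higher), and by 0 of the partner, dystroglycan complex and glycosylation genes.

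**Figure D4:**
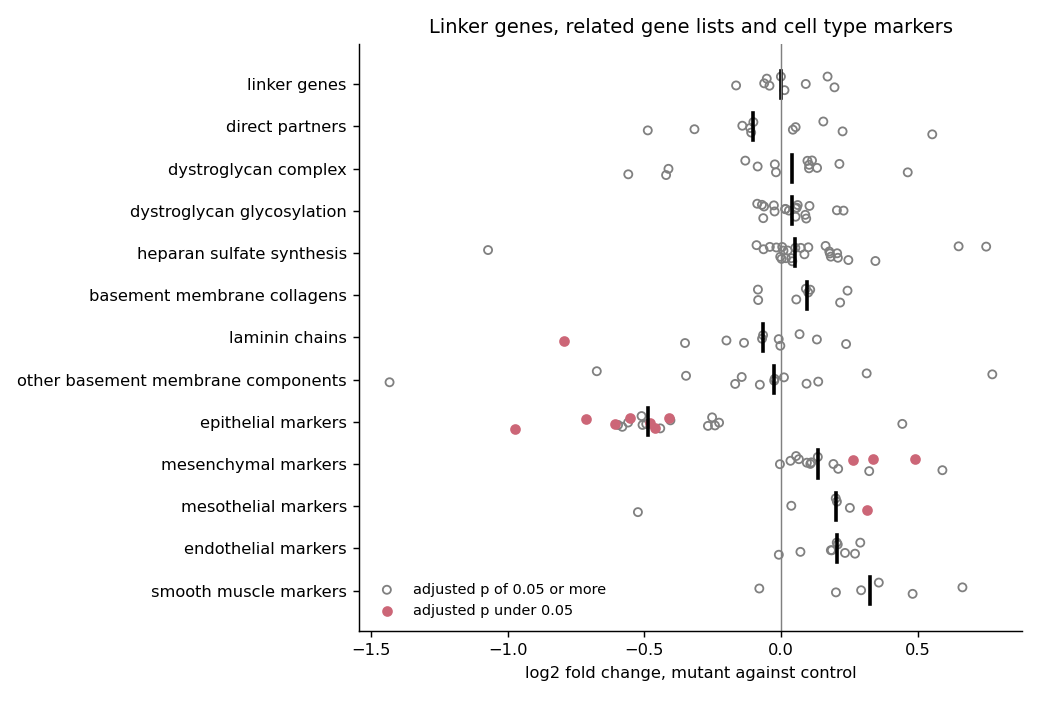
Log2 fold change of mutant against control (horizontal axis) for each gene of 13 lists. Open circles did not pass and filled circles passed an adjusted p under 0.05 in limma, and black bars are list medians. The 9 linker genes lie between -0.16 and 0.19 with a median close to 0, whereas epithelial markers centre on -0.49 and mesenchymal markers on 0.13. All lists were chosen with earlier results of these data known.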

How the data were processed

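RNA from pools of whole lungs was sequenced on the BGISEQ platform. Per the submitters' processing notes, Trim Galore, HISAT2, featureCounts and DESeq2 were used with mm10; settings and strand are not given in the sources used here. The authors deposited normalized counts (a signal: reads scaled by 1 factor per library) and, in the same table, fold changes and p-values of their own comparison, which were not used. In all 6 libraries 100% of nonzero values were whole multiples of 1 step (tolerance 0.02 of a read), which gave the reads; in control pool 3 that step was 0.994, and only 12.5% of values were whole at a step of 1.

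The main test was limma 3.58.1 in R 4.3.3 (eBayes with trend) on log2 of the normalized count with a pseudocount of 1. Genes entered if 3 or more libraries reached 1. The test was two-sided, with Benjamini-Hochberg adjustment over all 17168 tested genes, a threshold of 0.05 and no replicate block. Fold changes on this scale understate changes of low genes. edgeR 4.0.16 (TMM, filterByExpr, quasi-likelihood) was run on the recovered reads. Coordinates and exon lengths are those of GENCODE M21 (GRCm38). Older symbols were matched through RefSeq (GRCm38.p6), and *Hmcn2* was not matched.

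The 9 genes and all lists were chosen with earlier results of these data known. Named genes are the 9, *Rptor*, up to 3 genes of each list with the lowest p, and the 3 genes most like the member with the lowest p. Alternatives were another pseudocount, other filters and scaling, no trend, a replicate block and leaving out each pool. edgeR and the exon length correction were added after the data were seen.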

Additional observations from a re-analysis of the deposited data

How the results depend on the processing

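In every alternative run, 0 of the 9 genes passed an adjusted p under 0.05, and *Nid1*, *Nid2*, *Npnt*, *Frem2* and *Dag1* kept their direction. *Npnt* had an unadjusted p under 0.05 in each of them, with adjusted p from 0.062 (limma, without control pool 3) to 0.493 (limma, without mutant pool 3). The count of the 9 genes at an unadjusted p under 0.05 was 2 with the replicate block and 2 with the exon length correction, where 13.5% and 14.6% of all tested genes passed. Leaving out 1 pool at a time it ranged from 1 to 4, with 3 without control pool 2, 4 without control pool 3 and 2 without mutant pool 2, where 16.1%, 16.9% and 10.9% of all tested genes passed. The count with no overlap then also ranged from 1 to 4, with 2, 3 and 4 without those pools in the same order, where 33.4%, 34.0% and 29.9% of all tested genes did not overlap. Over all genes, 8 were called without the variance trend, 134 with the exon length correction and 1 to 468 when a pool was left out, with 1 without control pool 1 or mutant pool 3, 12 without mutant pool 1, 21 without mutant pool 2, 147 without control pool 2 and 468 without control pool 3. *Agrn* turned to 0.00383 with upper-quartile scaling and to 0.020 with the exon length correction. With a pool left out, log2 fold changes ranged from -0.046 to 0.060 for *Agrn*, -0.041 to 0.12 for *Hspg2*, -0.31 to 0.031 for *Fras1* and -0.15 to 0.042 for *Frem1*. Group differences of the log2 ratios then ranged from -0.039 to 0.16 (*Nid2* to *Nid1*), -0.023 to 0.057 (*Hspg2* to *Agrn*), -0.19 to 0.35 (*Frem1* to *Fras1*), -0.10 to 0.30 (*Frem2* to *Fras1*) and -0.058 to 0.091 (*Frem2* to *Frem1*). The cause was not tested.

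Same-numbered pools showed little shared deviation (r of -0.02, 0.10 and 0.03 across tested genes). These values cannot decide whether the numbers pair the samples, because the differences in exon length trend and sex between pools enter them too. Whether same-numbered pools shared litters or processing was not tested. With the replicate block 71 genes were called over all genes, and 0 of the 9. What limited the number of calls was not tested.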
